A study of Mus musculus with 4 samples.

Results

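Fatty acid oxidation genes were described as a set of 32 genes, chosen as a list by what their proteins do. No measured value of these samples was used as a rule, but earlier results of these data were known. All 32 were found by symbol among the 29245 gene columns of the deposited tables. Their levels are UMI counts, where a UMI is a molecular tag counted once per captured RNA, per 1000000 UMIs of the wells outside mitochondrial (mt-) and haemoglobin (Hba-, Hbb-) genes, abbreviated UPM. By role the set held 7 genes of uptake, activation and import, 4 chain-length dehydrogenases, 6 genes of the later steps of the cycle, 4 of double bond handling, 3 of electron transfer, 3 thioesterases and 5 regulators.

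The hearts came from 2 wild-type (WT1, WT2) and 2 Mst1/2-deficient (KO1, KO2) mice of strain C57BL/6, and the RNA of single cells in the wells of 4 chips was sequenced. MST1 and MST2 are kinases of the Hippo pathway, and the series title sets their inhibition beside a leukotriene B4 receptor antagonist in myocardial infarction. Cardiomyocytes (CM) had been separated from the other cells (NCM) by low-speed centrifugation, and each animal was spread over 1 CM chip and 1 NCM chip of its genotype. Injury, treatment, the allele, the cells in which it was deleted, age and sex are not given in the labels used here. Each chip held 1 genotype and 1 fraction, so within a fraction genotype and chip cannot be told apart, whereas KO1 and KO2 lay on the same chips. Within a genotype, fraction and chip cannot be told apart either, and the same holds for a difference of the KO effect between fractions. The animal is the replicate, with 2 per genotype.

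Mitochondrial fatty acid oxidation is the main source of ATP in the adult heart. Fatty acids enter the cell, are bound by a carrier protein, coupled to coenzyme A and moved into the mitochondrion by the carnitine shuttle of CPT1, a carnitine-acylcarnitine translocase and CPT2. Each turn of the cycle then removes an acetyl unit in a dehydrogenation, a hydration, another dehydrogenation and a thiolysis, and the electrons pass through the electron transfer flavoprotein to the respiratory chain. PPARalpha and its coactivator PGC-1alpha drive the transcription of many of these genes in heart muscle.

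Promoter sequences are shown for 3 members named in the results below. Hadhb faces its partner Hadha, and Cpt1a was the one member with a fitted level lower in the CM than in the NCM fraction. The window of Ucp3 held the nuclear receptor hexamer AGGTCA more than once. RefSeq windows of 300 bases (250 before to 50 after the start, GRCm38.p6) were matched for 27 of the 32 genes, which gave 30 promoters. The hexamer lay on either strand in 5 of the 30 promoters, those of Acadm, Acadvl, Cpt1a, Echs1 and Ucp3, against 16.3% of 32851 promoters of all genes. The element TCAAGGTCA, bound by oestrogen-related receptors, and the direct repeat of the hexamer with 1 base between its copies (DR1), bound by PPAR with its RXR partner, were in 0 of the 30, against 0.423% and 0.0396% of all promoters. The longer elements contain the hexamer, so these counts overlap. A missing match says only that these letters are not in this window. The Hadhb window (chr5:30155003-30155302, plus strand) shared its first 228 bases with the Hadha window on the minus strand, printed in capitals, and the annotated starts of both genes lie 86 bases apart. In Cpt1a (chr19:3323051-3323350, plus strand) and Ucp3 (chr7:100472741-100473040, plus strand) the capitals mark the hexamer or its reverse complement.
Hadhb: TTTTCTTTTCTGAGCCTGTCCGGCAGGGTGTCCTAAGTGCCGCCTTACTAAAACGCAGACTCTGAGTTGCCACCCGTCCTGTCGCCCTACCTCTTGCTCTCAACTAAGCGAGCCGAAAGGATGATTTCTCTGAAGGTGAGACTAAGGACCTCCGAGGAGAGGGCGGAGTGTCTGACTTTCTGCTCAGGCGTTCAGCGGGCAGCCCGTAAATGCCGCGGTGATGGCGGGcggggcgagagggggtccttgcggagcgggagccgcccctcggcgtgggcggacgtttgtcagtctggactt
Cpt1a: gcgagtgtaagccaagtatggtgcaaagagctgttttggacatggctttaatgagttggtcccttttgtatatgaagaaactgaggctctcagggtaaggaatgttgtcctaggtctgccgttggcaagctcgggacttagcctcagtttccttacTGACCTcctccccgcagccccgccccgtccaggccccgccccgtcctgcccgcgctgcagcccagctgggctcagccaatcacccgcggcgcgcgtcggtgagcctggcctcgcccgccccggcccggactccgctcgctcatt
Ucp3: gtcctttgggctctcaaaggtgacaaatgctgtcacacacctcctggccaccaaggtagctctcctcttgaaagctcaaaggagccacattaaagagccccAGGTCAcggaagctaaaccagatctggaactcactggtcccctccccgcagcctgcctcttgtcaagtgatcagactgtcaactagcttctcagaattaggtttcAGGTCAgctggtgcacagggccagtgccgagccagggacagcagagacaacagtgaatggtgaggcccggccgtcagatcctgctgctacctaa

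Of 4275 wells of the animals, 3990 had at least 10000 UMIs and 300 detected genes and were kept. The median depth per animal was 64408 to 209238 UMIs a well in the CM fraction and 64289.5 to 96782 in the NCM fraction. Mitochondrial genes took 35.7 to 47.2% of the UMIs in the CM fraction, and in the NCM fraction 7.45 and 11.2% in WT against 58.1 and 36.5% in KO. Of 3017 barcodes 856 occurred on more than 1 chip. In NCM wells the targeted gene Stk4 (MST1) stood at 53.1, 47.3, 45.8 and 37.5 UPM in WT1, WT2, KO1 and KO2, and Stk3 (MST2) at 23.5, 38.6, 29.0 and 26.3, so the RNA of both was present in KO animals. The labels do not say which part of the genes was deleted, so these counts do not check the genotype. Cardiomyocyte-like wells, named from marker genes after clustering without the 32 members, numbered 114, 180, 139 and 256 in the CM fraction of WT1, WT2, KO1 and KO2. In these wells Stk4 stood at 8.25, 8.57, 24.7 and 5.82 UPM and Stk3 at 5.55, 7.14, 10.4 and 4.51. For both genes KO1 was above and KO2 below both WT animals, and these counts do not check the genotype either. All 12 cardiomyocyte markers were detected in the cardiomyocyte-like wells of every animal and took 9.30, 10, 6.31 and 8.91% of UMIs outside mitochondrial and haemoglobin genes. Adipocyte markers, from another cell type that oxidises and stores lipid, were at 0 for 5 to 7 of 7 genes per animal.

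In cardiomyocyte-like wells the 32 genes gave 2.45 and 2.60% of the UMIs outside mitochondrial and haemoglobin genes in WT1 and WT2, 2.39% in KO2 and 1.12% in KO1. Their sum was 24477, 26005, 23899 and 11224 UPM in that order. Both WT animals and KO2 lay close together, and KO1 stood at 44.5% of the WT mean. Fabp3, Etfb, Ech1 and Acot13 were the 4 most abundant members in every animal and together took 67.3 to 70.9% of the sum.

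Fabp3 (ENSMUSG00000028773, chr4:130308595-130315463, plus strand, mm10), the heart fatty acid-binding protein that carries fatty acids through the cytosol, led the set. It stood at 9382, 9628, 3229 and 8886 UPM in WT1, WT2, KO1 and KO2. Its mean over the animals was 7782 UPM, ahead of Etfb with 2859. UMIs of Fabp3 were found in every cardiomyocyte-like well, and in every other kept well of the CM fraction too. A pseudogene copy, Fabp3-ps1, shares 29.2% of its 50-base stretches and had 3575, 3584, 1196 and 3328 UPM in the same order, so how reads were split between the copies is uncertain. Acsl1, which couples long-chain fatty acids to coenzyme A, stood at 286, 297, 101 and 245, and Cpt2, the inner carnitine palmitoyltransferase, at 144, 144, 64.6 and 124. Slc25a20, the carnitine-acylcarnitine translocase, and Slc27a1, a fatty acid transporter of the cell surface, stood at 28.5 to 72.4 and 7.77 to 37.6. Their means over the animals were 55.4 and 23.1 UPM, below the 119 of Cpt2. KO1 was the lowest animal for each of these 5 genes.

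Both genes of the outer carnitine palmitoyltransferase had low counts. Cpt1b (ENSMUSG00000078937, chr15:89416405-89425863, minus strand), the muscle isoform, had 0, 12, 0 and 7 UMIs in WT1, WT2, KO1 and KO2, in 5 wells in all. A count of 0 allows up to 0.406 UPM in WT1 and 0.707 in KO1. Of its exon bases 81.4% also belong to the read-through gene Gm44502 on the same strand, which has no column in the tables. How overlapping reads were counted is not given in the labels or notes used here. The part of that overlap in the low count was not tested. Cpt1a (ENSMUSG00000024900, chr19:3322334-3385733, plus strand), the isoform of liver and many other tissues, stood at 3.92, 13.2, 10.1 and 15.2 UPM and was found in 10 of 114, 23 of 180, 7 of 139 and 39 of 256 wells. WT1 was lowest, and the genotypes overlapped.

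Among the acyl-CoA dehydrogenases, which take the first step for chains of different length, the long- and medium-chain genes Acadl and Acadm carried nearly all counts. Acadl stood at 578, 744, 486 and 611 UPM in WT1, WT2, KO1 and KO2, and Acadm at 619, 725, 314 and 529. Their means over the animals were 605 and 547 UPM, against 10.3 for Acadvl (very long chains) and 5.83 for Acads (short chains). Acadvl (ENSMUSG00000018574, chr11:70010183-70015411, minus strand) had UMIs in 12, 18, 0 and 35 wells, and 0 UMIs in KO1 allow up to 0.707 UPM. Of its exon bases 42.9% overlap Dvl2 on the other strand, which itself had at most 1.49 UPM in these wells. The strand setting of the counting is likewise not given there.

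Hadha and Hadhb encode the alpha and beta subunits of the trifunctional protein, which carries out the last 3 steps for long chains, and share the promoter stretch printed above. Hadha (chr5:30118304-30155162, minus strand) stood at 517, 503, 271 and 473 UPM, and Hadhb (chr5:30155248-30184593, plus strand) at 351, 405, 148 and 315. Hadha exceeded Hadhb in every animal, by a ratio of 1.24 to 1.83. Hadhb shares 18.1% of its 50-base stretches with Gm13910, which had 92.4 to 242 UPM. Of the other enzymes of the same steps, the thiolase Acaa2 had 1199, 1054, 559 and 1214 and the hydratase Echs1 371, 373, 173 and 377. The dehydrogenase Hadh had 159, 209, 75.9 and 183, and Acat1, a thiolase that also serves ketone use, 299.9, 351, 102 and 288. In each of these 6 genes KO1 lay below the other animals, and in Acaa2 and Echs1 KO2 was the highest.

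Ech1, which moves double bonds of unsaturated chains, was the most abundant gene of double bond handling, at 2304, 2822, 1121 and 2555 UPM. The isomerase Eci1 stood at 499, 613, 131 and 432, the dienoyl-CoA reductase Decr1 at 514, 457, 179 and 370.3, and the isomerase Eci2, which peroxisomes also hold, at 119, 105, 74.5 and 125. Eci1 was the enzyme of the cycle in which KO1 fell furthest below WT among those above 100 UPM in both WT animals, at 23.6% of the WT mean.

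The electron transfer flavoprotein is a dimer of the products of Etfa and Etfb. Etfb stood at 3425, 3200, 1718 and 3094 UPM and Etfa at 998, 1012, 598 and 970.3, a ratio of Etfb to Etfa of 2.87 to 3.43. Of the exon bases of Etfb, 58.2% belong also to Gm45233 or Mir7051 on the same strand, which have no column in the tables. Etfdh, the membrane oxidoreductase that passes the electrons to ubiquinone, stood at 249, 242, 126 and 216. In all 3 genes both KO animals were below both WT animals, KO2 by little.

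Of the thioesterases, which release free fatty acids from coenzyme A, Acot13 stood at 2034, 2602, 1486 and 2406 UPM. Acot2, the mitochondrial enzyme, had 57.6, 62.4, 17.0 and 34.6, and its cytosolic neighbour Acot1 23.5, 7.92, 0 and 6.64. Acot2 shares 24.5% of its 50-base stretches with Acot1, so reads of this pair may be split.

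Among the regulators, Ppargc1a (ENSMUSG00000029167, chr5:51454250-51567726, minus strand), which encodes PGC-1alpha, stood at 105.5, 109, 46.4 and 68.9 UPM, and Ppara (ENSMUSG00000022383, chr15:85734983-85802819, plus strand) at 23.3, 18.2, 13.7 and 14.6. Both KO animals were below both WT animals in these 2 genes. Pdk4, the kinase that turns off pyruvate dehydrogenase and is a known PPAR target, showed another order, with 81.3, 84.9, 75.9 and 152. Mlycd, which removes the CPT1 inhibitor malonyl-CoA, had 29.8, 77.4, 61.5 and 83.3, and Ucp3, a mitochondrial carrier of muscle, 3.52, 3.45, 1.65 and 11.7. KO2 was the highest animal for Pdk4, Mlycd and Ucp3, while KO1 was the lowest for Pdk4 and Ucp3.

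**Figure D1:**
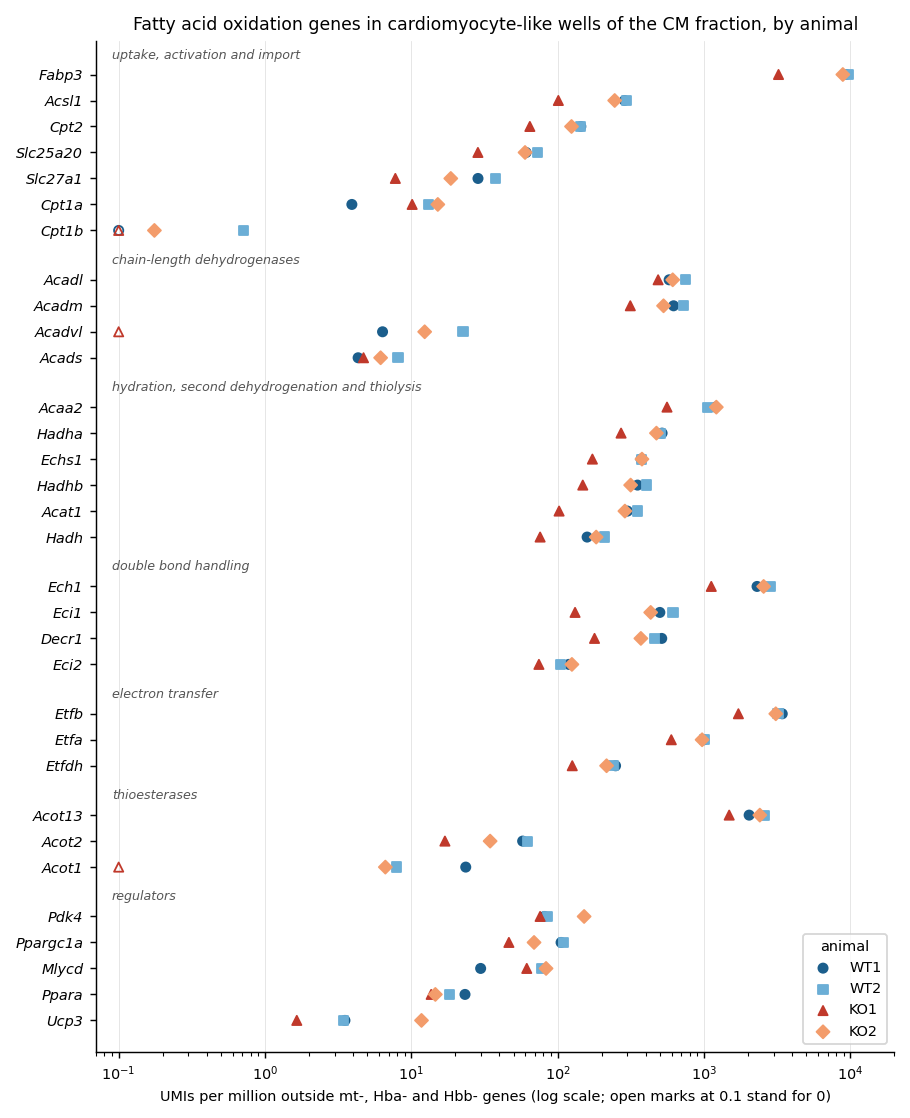
Levels of the 32 genes (vertical axis, grouped by role) in cardiomyocyte-like wells of the CM fraction, as UPM on a log scale, 1 mark per animal. Open marks stand for 0 UMIs. The red triangles of KO1 lie left of the other 3 animals for most enzymes, whereas KO2 mostly lies beside the WT animals, as for Fabp3 (8886 against 9382 and 9628).

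The comparison of KO with WT asks how the set differed in these cells between animals labelled KO and WT. Loss of the targeted kinases in these cells was not tested. Most genes of the set were below the WT mean in KO1 and nearer to it in KO2, and no member passed the test. Cpt1a (119%) and Mlycd (115%) stood above the WT mean in KO1. In KO2, Slc27a1, Acot2 and Ppargc1a stood at 56.2, 57.6 and 64.2% of it and Mlycd, Cpt1a, Pdk4 and Ucp3 at 155, 178, 182 and 337%. Of 31 members tested (Cpt1b was too low), 27 had a lower mean level in KO and 4 a higher one, with a median log2 difference of −0.64, against 0.01 over all 12285 genes. The edgeR quasi-likelihood test called 0 members after Benjamini-Hochberg adjustment (lowest adjusted p = 0.896), with 0.0% of all genes called. At an unadjusted p under 0.05 there were 0 members against 5.28% of genes, and DESeq2 called 0 members and 0.724% of genes. In 18 members both KO animals were below both WT animals, against 15.3% of all genes tested, and in 0 members both were above, against 21.6%. The other 14 members, Cpt1b among them, overlapped between the genotypes.

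Acot1, with a mean of 9.52 UPM and both KO animals below both WT animals, had the lowest log2 difference, −2.16. The naming rule took members of at least 10 UPM. Among these the 4 largest falls without overlap were those of Slc27a1, Acot2, Eci1 and Ppargc1a, whose values by animal are given above. The log2 differences, KO minus WT, were −1.41 (SE 0.687) for Slc27a1, −1.32 (SE 0.560) for Acot2, −1.06 (SE 0.644) for Eci1 and −1.02 (SE 0.434) for Ppargc1a. Their edgeR adjusted p values were 0.902, 0.896, 0.902 and 0.896. These genes span transport, the thioesterases, double bond handling and regulation, and in each of them KO1 was below KO2.

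The difference between KO1 and KO2 was larger than that between KO2 and WT. Over the 28 members with a mean of at least 10 UPM, KO1 had a median of 45.6% of the WT mean and KO2 91.1%, while over 6533 genes of that level the medians were 126% and 97.9%. By role, the sums in KO1 ranged from 34.2% of the WT mean for import to 74.2% for the regulators, and those in KO2 from 85.6% for the dehydrogenases to 123% for the regulators. Without KO2, edgeR called 19 of 31 members lower in KO1 than in WT, against 2.99% of all genes called lower and 5.7% in either direction, with a median log2 difference of −1.48. Without KO1 it called 0 of 32 members, with 0.0216% of genes called (0.00721% lower) and a median of −0.14 over the members. A single animal stands for its genotype in these fits, and its spread is assumed to be that of the WT animals.

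Single wells showed the same order of animals. The median well held 23858 UPM of the 32 genes summed in WT1, 24382 in WT2, 10308 in KO1 and 23827 in KO2. The lower and upper quartiles were 7621 and 13349 in KO1, with the upper one below the lower quartiles of 19623, 20718 and 20481 in WT1, WT2 and KO2. In wells with at least 50000 UMIs outside mitochondrial and haemoglobin genes the medians were 23917 (60 wells), 25996 (121 wells), 13406 (21 wells) and 24007 (232 wells). KO1 thus stayed lowest at this depth.

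Other measures of the wells moved with KO1. Mitochondrial UMIs took 61.3% of all UMIs of its cardiomyocyte-like wells, against 48.3, 42.6 and 38.1% in WT1, WT2 and KO2, and the median well had 18831 UMIs outside mitochondrial and haemoglobin genes, against 51187, 73921.5 and 128601. The 12 cardiomyocyte markers were at 6.31% in KO1, and per cardiomyocyte marker UMI the 32 genes had 0.178 UMIs, against 0.263, 0.260 and 0.268. The 4 atrial markers (Myl7, Myl4, Sln, Nppa) took 0.109, 0.136, 1.32 and 0.416% in WT1, WT2, KO1 and KO2, so both KO animals were above both WT animals. In wells where these took under 0.1%, the medians of the set were 23013 (73 wells), 24382 (156 wells), 8880 (19 wells) and 22965 (32 wells). Across wells, the set fell with the mitochondrial share in WT1 (Spearman rho −0.53 over 114 wells), WT2 (−0.71 over 180) and KO2 (−0.30 over 256) but hardly in KO1 (−0.05 over 139). These coefficients describe wells of 1 animal and chip. The low level of KO1 was not limited to cardiomyocyte-like wells. In the other wells of the CM fraction the set summed to 12052, 16917, 4592 and 17990 UPM in WT1, WT2, KO1 and KO2. There KO1 stood at 31.7% and KO2 at 124% of the WT mean. The part of mitochondrial share, depth and atrial RNA in the low level of KO1 was not tested.

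**Figure D2:**
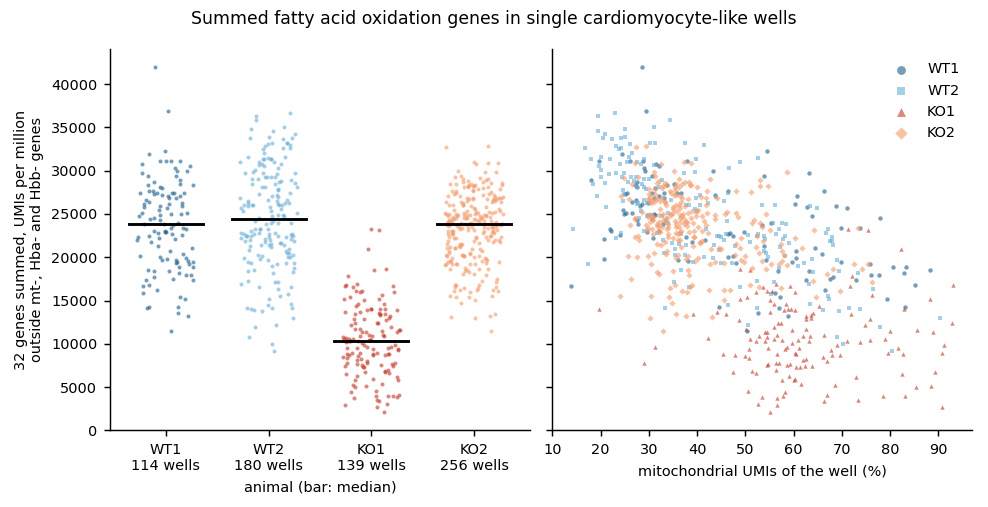
Left, the 32 genes summed per cardiomyocyte-like well, 1 point per well and a bar at the median of each animal. Right, the same values against the mitochondrial share of the well. KO1 has its median at 10308 UPM and the other 3 animals between 23827 and 24382.

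The comparison of fractions places the set between heart muscle cells and the other cells of the same hearts. All 32 genes summed were 10, 8.78, 4.22 and 8.65 times as high in the CM as in the NCM fraction of WT1, WT2, KO1 and KO2. With the animal as a block, edgeR called 27 of 31 members higher in the CM fraction, against 9.46% of 15439 genes called higher and 16.1% called in either direction. No member was called lower, against 6.61% of genes. The median log2 difference of the members was 2.89, against −0.22 over all genes. Every member tested of the later steps of the cycle, double bond handling, electron transfer and the regulators was called, 5 of 6 of import and 2 each of the 4 dehydrogenases and 3 thioesterases.

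The regulators had the highest median log2 difference of the roles, 4.66, with single values from 3.28 (Mlycd) to 5.98 (Ppara). Ppara stood at 12, 10.8, 4.80 and 13.5 UPM in the CM fraction of WT1, WT2, KO1 and KO2, and at 0.11, 0.38, 0.08 and 0.59 in the NCM fraction, and differed by log2 5.98 (SE 0.662, edgeR adjusted p = 0.000626). Ppargc1a stood at 52.5, 77.8, 20.4 and 67.6 against 0.58, 0.97, 1.93 and 4.85 and differed by 5.56 (SE 0.655, edgeR adjusted p = 0.000841). In both genes all 4 animals had a higher level in the CM fraction. Fabp3 stood at 6322, 8169, 1725 and 8233 against 91.0, 339.9, 104 and 336 and differed by 5.38 (SE 0.419, edgeR adjusted p = 0.00016). Ucp3 stood at 2.42, 4.47, 1.75 and 9.84 against 0.05, 0.36, 0.04 and 1.76 and differed by 4.66 (SE 0.838, edgeR adjusted p = 0.00649). In the NCM fraction Ppara had only 9, 36, 2 and 32 UMIs in WT1, WT2, KO1 and KO2, and Ucp3 4, 34, 1 and 95. The size of these differences, and with it the rank of Ppara and of the regulators, is therefore imprecise.

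The smallest positive differences were those of Slc27a1 (log2 1.37, SE 0.340, edgeR adjusted p = 0.0271), Eci2 (1.37, SE 0.342, edgeR adjusted p = 0.0273), Acads (1.70, SE 0.738, edgeR adjusted p = 0.156) and Acot1 (1.94, SE 0.641, edgeR adjusted p = 0.0736). Acads and Acot1 did not pass, and neither did Acadvl, which had few UMIs. Slc27a1 and Eci2 no longer passed with library totals (log2 0.83 each) or without WT1, WT2 or KO2, and Ucp3 without the block (3.74). Cpt1a was the single member of opposite sign. It stood at 38.5, 11.6, 28.6 and 16.8 UPM in the CM fraction and at 30.7, 34.4, 57.2 and 48.3 in the NCM fraction, and differed by log2 −0.41 (SE 0.349, edgeR adjusted p = 0.466). WT2, KO1 and KO2 had less in the CM fraction, and WT1 had more.

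The genotypes were not alike in how many members passed. In WT animals alone 25 of 31 members were called, against 9.53% of genes, and in KO animals alone 4 of 31, against 1.19%. The members' medians in these fits were log2 3.32 and 2.45. The difference of the KO effect between the fractions was itself tested, and edgeR called 0 members (lowest adjusted p = 0.903; 0.0% of genes called; 2 members against 5.18% of genes at an unadjusted p under 0.05). Of 31 members 30 had a more negative KO effect in the CM than in the NCM fraction, while 49.4% of all genes tested had a more positive one. The median difference was −0.76, against −0.01 over all genes. The animals of a genotype were unlike here. The set summed was 4.22 times as high in the CM fraction in KO1 and 8.65 times in KO2, against 10 and 8.78 times in WT1 and WT2. DESeq2 called Ppargc1a (1 member against 0.693% of genes). With library totals in place of TMM factors, the median of all genes in the comparison of fractions moved to −0.76 and that of the members to 2.33. Then 25 members were called, all higher, beside 1052 genes higher (6.81%) and 2957 lower (19.2%) in place of 1460 and 1021.

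**Figure D3:**
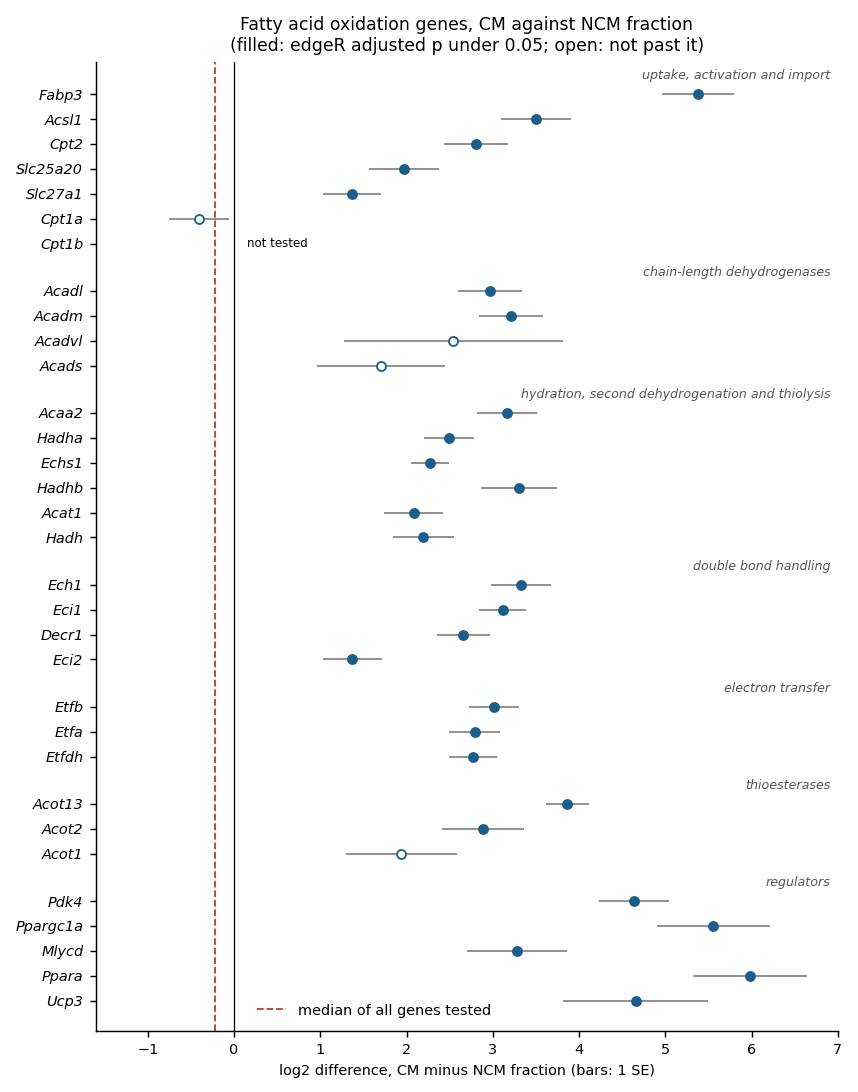
Log2 difference between the CM and the NCM fraction for each gene, grouped by role, with bars of 1 standard error and filled circles for the 27 members past the test. The dashed line marks the median of all genes tested (−0.22). Ppara, Ppargc1a, Fabp3, Ucp3 and Pdk4 lie furthest to the right, and Cpt1a alone lies left of 0.

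The CM fraction was not muscle cells alone, and RNA of muscle cells was found in wells of other types. In endothelial-like wells of the CM fraction the set summed to 5324 to 23131 UPM with 2.45 to 7.54% of cardiomyocyte markers, and in macrophage-like wells to 3296 to 15816 with 1.23 to 5.09%. On the NCM chips the same 2 classes had 1580 to 2693 and 1266 to 2762, with at most 0.586 and 0.440% of these markers. Levels in other cell types were therefore taken from the NCM chips.

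A further description set each member's NCM level against its level in cardiomyocyte-like wells of the same animal. The 12 cardiomyocyte markers summed stood at 1.35, 3.61, 4.33 and 7.03% of their cardiomyocyte-like level in NCM wells of WT1, WT2, KO1 and KO2. Fabp3 (0.97, 3.53, 3.23 and 3.78%) and Ppara (0.46, 2.11, 0.55 and 4.06%) were below the markers in all 4 animals. Ppargc1a (0.55 to 7.04%), Pdk4 (1.77 to 11.1%), Ucp3 (1.34 to 14.99%) and Acadvl (1.37 to 20.2% in 3 animals) were on both sides of them. The NCM level of these genes was thus no higher, or not in every animal, than the level at which the muscle markers summed were present there.

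The other 25 members were above the markers summed in every animal with more than 3 UMIs in the cardiomyocyte-like wells. Single markers reached higher shares, such as Tcap with 9.37% in WT2 and Pln with 10.1% in KO1. Of the 25, Acadm, Hadhb, Acsl1, Acot2 and Mlycd (3.85 to 7.82%) were below Tcap in WT2, and the rest were above it. Acot13 (6.07%) was below Pln in KO1, and Ech1, Hadhb, Mlycd and Acaa2 (8.39 to 9.88%) were below Myl2 in KO2. The part of muscle RNA in these NCM levels was not tested. Etfa stood at 13.2 to 19.5%, Etfb at 10.5 to 15.8%, Hadha at 14.4 to 27.8%, Acadm at 7.64 to 16.4% and Echs1 at 19.1 to 31.4%. The median over 31 members of their median share was 14.8%. Eci2 (32.6 to 74.8%) and Slc27a1 (24.5 to 174%) stood higher still. Cpt1a was at 782, 261, 564 and 318%, more abundant in NCM wells than in cardiomyocyte-like wells of every animal. On this scale, fewer RNA molecules of a gene per cell and more RNA of other genes cannot be told apart.

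**Figure D4:**
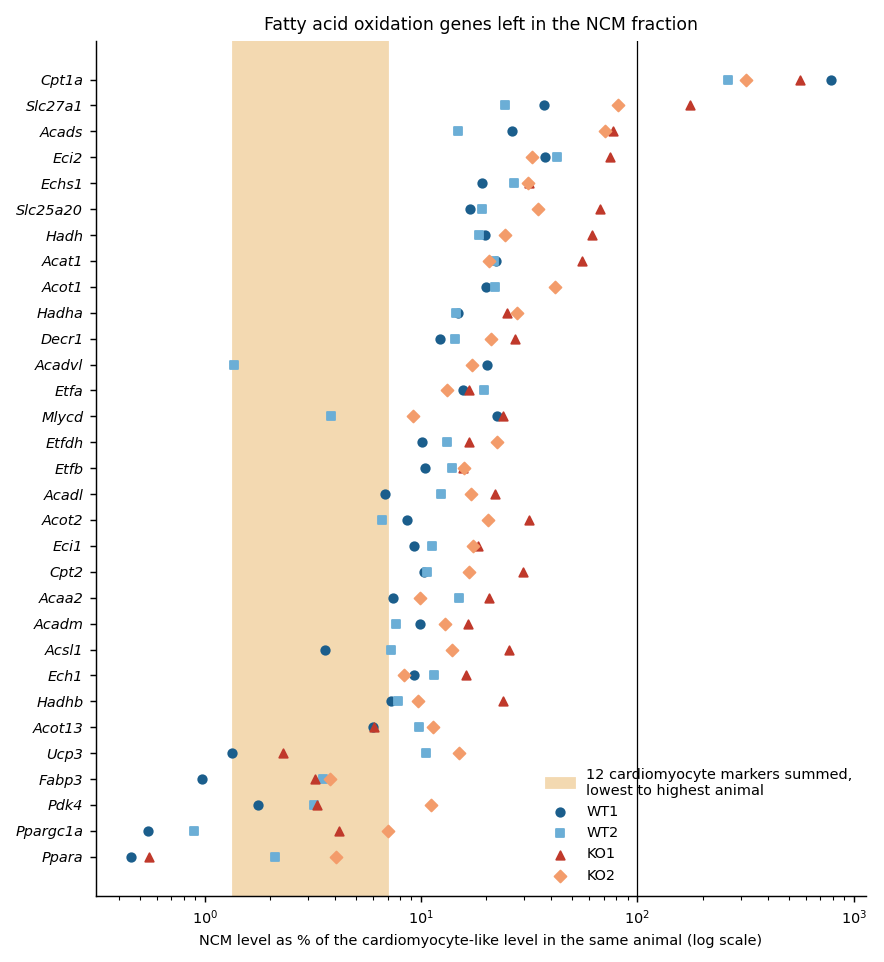
NCM level of each member as a percent of its level in cardiomyocyte-like wells of the same animal, on a log scale, ordered by the median. The shaded band spans the 12 cardiomyocyte markers summed (1.35 to 7.03%), and the line marks equal levels at 100%. Ppara, Ppargc1a, Pdk4, Fabp3 and Ucp3 have their medians inside the band or at its lower edge, most enzymes have them between the band and the line, and Cpt1a lies to the right of it.

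Among NCM wells the set was low and much alike in the 4 named classes that had a sum in every animal. Fibroblast-like wells summed to 1464 to 2121 UPM over the 4 animals and endothelial-like wells to 1580 to 2693. Macrophage-like wells summed to 1266 to 2762 and neutrophil-like wells to 1141 to 1755. These 4 ranges overlap. Other NCM wells were less alike. Cluster 0, without a cell type name, summed to 10275 UPM in WT2 (32 wells), 1817 in KO1 and 3836 in KO2. Cardiomyocyte markers took 2.25, 0.583 and 1.12% of UMIs there. Clusters 2 and 3, also without a name, ranged from 1659 to 3926 and from 1484 to 2730. Lymphatic endothelial-like wells had 3301 in WT2, and endocardial-like wells 2148 in WT2 and 2449 in KO2. Cpt1a stood at 32.2, 39.9, 92.7 and 61.9 in fibroblast-like wells of WT1, WT2, KO1 and KO2, at 18.6, 28.1, 44.5 and 61.5 in endothelial-like wells and at 11.2, 53.8, 69.0 and 32.4 in macrophage-like wells. Both KO animals were above both WT animals in the first 2 classes, and the genotypes overlapped in macrophage-like wells.

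In the NCM fraction as a whole, 19 members had a higher and 12 a lower mean level in KO, and no member passed the test. The sum stood at 1679, 2504, 1596 and 2547 UPM for WT1, WT2, KO1 and KO2, so the genotypes overlapped. edgeR called 0 of 31 members (lowest adjusted p = 0.380), with 0.0% of 17216 genes called, and 1 member, Etfa, against 12.1% of genes had an unadjusted p under 0.05. DESeq2 called 0 members and 3.36% of genes. In 12 members both KO animals were above both WT animals, against 26.9% of genes tested, and in 3 both were below, against 18.3%. The median log2 difference was 0.22, against −0.01 over all genes, and moved to 0.0087 without WT1, 0.49 without KO1 and −0.0030 without KO2.

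By the naming rule, which took members of at least 10 UPM, the rises were those of Acsl1, Slc25a20, Cpt1a and Acadl. The falls were those of Etfa, Ech1 and Acat1. Under that minimum Acadvl, Acads, Acot2, Ppargc1a and Mlycd were also higher in both KO animals. The 5 regulators, each with a mean under 10 UPM, had a median log2 difference of 2.00 (0.35 to 2.10). Ppara, Pdk4 and Ucp3 among them overlapped between the genotypes. Acsl1 stood at 10.3 and 21.5 UPM in the WT animals and 25.8 and 33.9 in the KO animals (log2 0.75, SE 0.493), and Cpt1a differed by 0.53 (SE 0.290), Slc25a20 by 0.57 (SE 0.428) and Acadl by 0.51 (SE 0.425). Acsl1, Slc25a20 and Cpt1a serve activation and import. Etfa stood at 156 and 198 in the WT animals, against 99.3 and 129 (log2 −0.79, SE 0.28, edgeR adjusted p = 0.380), Ech1 at 215 and 322 against 180.0 and 214 (−0.60, SE 0.290) and Acat1 at 66.5 and 76.6 against 56.8 and 59.7 (−0.46, SE 0.265). The edgeR adjusted p values of the other members named by the rule were 0.455 to 0.650. Beside these values, the cardiomyocyte markers took 0.126 and 0.361% in WT and 0.273 and 0.626% in KO, and the mitochondrial share given above was higher in both KO animals. The mix of cells also differed between animals, since all NCM wells were taken whatever their class. Cluster 0, which has no cell type name, held 5, 32, 190 and 39 NCM wells of WT1, WT2, KO1 and KO2. Cluster 2, also without a name, held 92, 73, 37 and 276. The part of muscle RNA, mitochondrial share and cell mix in the differences was not tested.

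Within single classes of the NCM fraction edgeR called 0 of 27 members in fibroblast-like wells, 0 of 26 in endothelial-like wells and 0 of 26 in macrophage-like wells, with 0.0% of all genes called in each. At an unadjusted p under 0.05 there were 2, 1 and 1 members, against 10.3, 8.91 and 9.12% of genes, and DESeq2 called 0 members in each class. Etfa was lower in both KO animals in fibroblast-like wells (209, 249, 172 and 153 UPM; log2 −0.68, SE 0.28, edgeR adjusted p = 0.475) and in endothelial-like wells (269.5, 195, 71.4 and 97.8 UPM; log2 −1.63, with an edgeR adjusted p of 0.523, SE 0.446). In macrophage-like wells it stood at 85.4 and 99.2 against 94.2 and 91.3, and the genotypes overlapped. In fibroblast-like wells Etfb (log2 −0.88, SE 0.287, edgeR adjusted p = 0.418) and Eci1 (−0.87, SE 0.497, edgeR adjusted p = 0.592) were lower in both KO animals too, and Cpt1a (0.92, SE 0.426, edgeR adjusted p = 0.508) and Acadl (0.71, SE 0.475, edgeR adjusted p = 0.651) higher.

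Both KO animals were below both WT animals in 3 of 27 members in fibroblast-like wells (18.4% of genes), 2 of 26 in endothelial-like (15.7%) and 2 of 26 in macrophage-like wells (19.8%), and above in 6 (24.5%), 6 (25.2%) and 4 (20.4%). Of members with at least 10 UPM on average, those other than Etfa without overlap in endothelial-like wells were Eci1 (143, 96.7, 28.0 and 71.5 UPM; log2 −1.42), Cpt1a (log2 1.02), Slc25a20 (0.89), Acadm (0.88) and Hadh (0.28). Hadh turned to −0.040 without KO2. At the same minimum, in macrophage-like wells Acaa2 (67.9, 62.2, 111 and 176 UPM; log2 1.04) and Hadhb (0.88) were higher in both KO animals and Acadm (−0.46) lower. The edgeR adjusted p values of these members were 0.579 to 0.927.

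The cardiomyocyte-like class was made of 2 clusters, and the members differed between them by the length of their RNA. Cluster 8 held 87, 97, 134 and 203 of its CM wells in WT1, WT2, KO1 and KO2, and cluster 10 held 27, 83, 5 and 53. The 10 leading genes of cluster 10 included 3 cardiomyocyte markers (Ttn, Myh6, Ryr2) and 3 atrial ones (Sln, Myl7, Myl4). The median well of cluster 10 had a lower share of atrial markers than that of cluster 8 in every animal, at 0.0237 against 0.0918% in WT1, 0.0172 against 0.0435% in WT2, 0.163 against 0.251% in KO1 and 0.125 against 0.224% in KO2. KO1 was left out of this description because of its 5 wells. The 7 members with the shortest principal transcripts among those of at least 10 UPM (Acot13, Fabp3, Etfb, Eci1, Ech1, Etfa and Acaa2, up to 1516 bases) were lower in cluster 10 in all 3 animals. Fabp3 stood at 0.65, 0.70 and 0.65 of its cluster 8 level in WT1, WT2 and KO2, and Etfb at 0.42, 0.57 and 0.50. Of the 21 longer members 19 were higher in cluster 10 in each animal. Acsl1 stood at 3.32, 2.25 and 2.35, Pdk4 at 2.41, 2.92 and 2.48 and Ppargc1a, with the longest transcript (6464 bases), at 2.95, 3.44 and 1.78.

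Over these 28 members Spearman's rho of the ratio with transcript length was 0.79, 0.66 and 0.71 in WT1, WT2 and KO2, and over 5966, 6032 and 6040 genes of the same level it was 0.39, 0.42 and 0.46. Genes up to 1516 bases were lower in cluster 10 in 67.4 to 72.0% of cases over all genes, and longer genes higher in 67.9 to 73.7%. The direction was thus that of other genes. All values come from the same wells that made the clusters, the split by length was chosen after the values were seen, and no test was made. The median well of cluster 10 had 142047, 158809 and 248224 UMIs in the 3 animals, against 85373, 102729 and 217898 in cluster 8, and mitochondrial shares of 53.8, 47.9 and 43.1% against 32.9, 29.0 and 35.6%. The part of depth, mitochondrial share and RNA length in the difference was not tested.

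**Figure D5:**
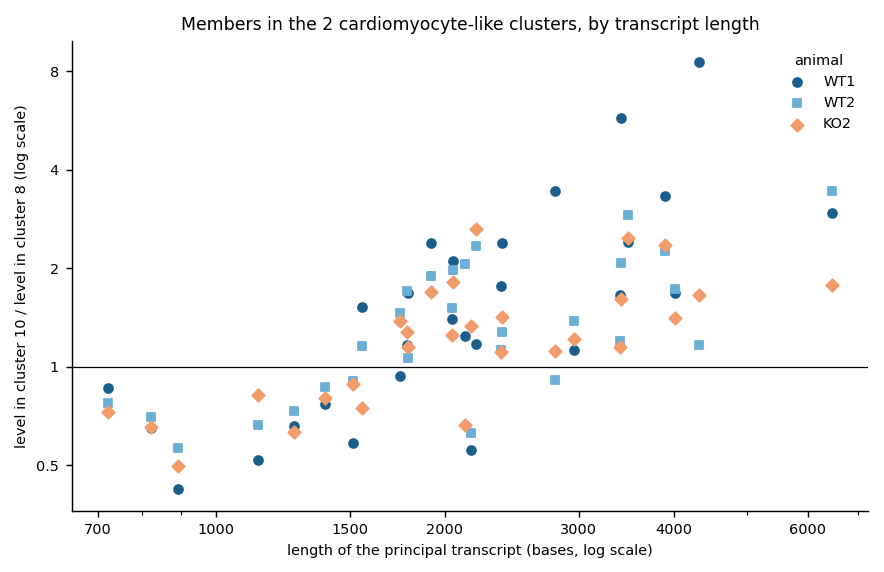
Ratio of each member's level in cluster 10 to that in cluster 8 (log scale) against the length of its principal transcript in bases (log scale), for the 28 members of at least 10 UPM and 3 animals. Members up to 1516 bases lie below 1 in every animal, and 19 of 21 longer members lie above it in each.

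Of the other genes of lipid and ketone metabolism, given as 6 lists with 70 genes in all, 20 were called higher and 2 lower in the CM fraction, against 9.46 and 6.61% of all genes tested, and 0 were called between the genotypes in cardiomyocyte-like wells or in the NCM fraction. Of 18 tested genes of lipid uptake and storage 5 were higher in the CM fraction. Plin5, which holds lipid droplets to mitochondria, stood at 73.4, 72.5, 17.8 and 157 UPM in WT1, WT2, KO1 and KO2 against 1.25, 4.59, 0.42 and 7.80 in the NCM fraction (log2 5.41, SE 0.387). Of 4 ketone genes 2 were higher, Oxct1 (log2 3.11) and Bdh1 (5.74), which serve the breakdown of ketone bodies. KO1 was the lowest animal for all 3 genes in the CM fraction.

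Of 20 further regulators 6 were called higher in the CM fraction, among them Prkaa2, a catalytic subunit of AMP kinase (log2 4.73), Ppargc1b (3.40), Pdk2 (3.03) and Esrra, an oestrogen-related receptor (2.12). The 2 called lower were Ucp2 (−1.42) and the corepressor Nrip1 (−1.04). Among the 10 other mitochondrial acyl-CoA dehydrogenases and partners (4 higher: Hsd17b10, Ivd, Hsdl2, Acadsb), the 5 genes of carnitine and malonyl-CoA (2 higher: Crat, Acacb) and the 11 tested peroxisomal genes (1 higher: Scp2) 0 were called lower. The share of the peroxisomal list is near that of all genes. In cardiomyocyte-like wells the median log2 difference of KO from WT was −0.59 for the peroxisomal list, −0.55 for the other dehydrogenases and −0.73 for carnitine and malonyl-CoA, and −0.20, −0.18 and −0.16 for lipid uptake and storage, ketone use and the regulators.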

How the data were processed

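Single cells of mouse hearts were sequenced as polyadenylated RNA after a Nextera XT library step, per the labels' protocols. The authors deposited counts per gene and well for 4 libraries with a per-well report, whose Type column names the animal and fraction. The deposited counts are UMI counts: summed over genes they matched, well by well, the number of gene and UMI pairs in the report. The submitters' processing notes name mm10, featureCounts, Subread (1.4.6-p1) and STAR (2.5.2b). Settings for strand, overlaps and UMI collapsing, and the annotation release, were not stated there.

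Of the 29245 gene columns 28604 matched a symbol. The 70 spike-in and vector columns (4.98e-05% of UMIs), 40 control wells and, from library sizes and tests, mitochondrial and haemoglobin genes were left out, and 0 columns of per-sample values lacked a sample. Wells were clustered with scanpy 1.11.5 (leidenalg 0.10.2, Python 3.11.15) on 2000 variable genes without the members, with 30 components, 15 neighbours and Leiden resolution 1.0. A cluster was named "-like" with at least 3 of a class's markers among its 30 leading genes, first against wells of the same libraries and otherwise against all wells, as for cluster 8. Clusters 0, 2 and 3 stayed unnamed. Scrublet marked from 0 to 20 wells per library, which were left in except in an alternative, so doublets may remain.

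Counts were summed per animal and set of wells (at least 20) and fitted over all genes with edgeR 4.0.16 in R 4.3.3 (quasi-likelihood test, TMM, filterByExpr, Benjamini-Hochberg adjustment at 0.05), and also with DESeq2 1.42.0. All adjusted p values are from these fits. In the comparison of fractions the animal was a block, since the report names the same animals on both chips. Fits were tested on simulated data. Positions, lengths and overlaps are from GENCODE M21 (mm10). Promoters are from RefSeq. Figures were drawn with matplotlib 3.10.9.

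The members and lists were chosen with earlier results of these data known. KO against WT was named for members past the threshold and the 4 largest rises and falls among members of at least 10 UPM without overlap of the genotypes. The fractions were named by the 4 largest and 4 smallest differences and any of opposite sign.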

Additional observations from a re-analysis of the deposited data

How the results depend on the processing

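The 2 animals per genotype limit the precision of every test. Each animal was left out in turn. The number of members called between KO and WT in cardiomyocyte-like wells then ranged from 0 to 19, with 19 without KO2, and in the NCM fraction, its 3 classes and the difference between fractions it was 0 throughout. Between the fractions 24 to 29 members were called, 25 in WT animals alone and 4 in KO animals alone, where the spread rests on 2 pairs. Without the replicate block, that is without pairing the sums of an animal, 27 members were called too, with Acot1 (2.00) in place of Ucp3 (3.74). DESeq2 called 1 member for the difference of the KO effect between fractions and edgeR 0. The other settings (library totals, mitochondrial genes kept, no filter, a higher minimum of UMIs per well, marked wells left out, and for cardiomyocyte-like wells all CM wells, Leiden resolution 2.0 and the larger cluster alone) moved no count of called members by over 1.5 times. Over all genes the fractions differed in 2481 genes, in 4319 by DESeq2, in 4009 with library totals and in 1248, 1377 and 1451 without KO2, WT1 and WT2. Limiting cardiomyocyte-like wells to the larger cluster was chosen after seeing the data. Of the values of named members under all settings 357 kept direction and side of the threshold, 15 no longer passed, 6 newly passed and 1 turned: Hadh in endothelial-like wells stood between −0.040 (without KO2) and 0.51 (without KO1) with 1 animal left out. Slc27a1 and Eci2 did not pass between the fractions with library totals (0.83 and 0.83). Wells under 30% mitochondrial UMIs could not be fitted in any comparison, nor wells with under 0.1% atrial markers (also chosen after seeing the data), since a sum then held fewer than 20 wells. The cause of these changes was not tested.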
